A study of Mus musculus with 469 samples.

Results

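The axon guidance genes of this account were chosen by gene symbol: the semaphorins, plexins, ephrins, Eph receptors, Slits, Robo receptors and Unc5 receptors, with Nrp1, Nrp2, Dcc and Ntn1 added by name. The rule gave 66 of 23281 gene entries. The ligands were 7 secreted class 3 semaphorins, 13 transmembrane or membrane-anchored semaphorins, 5 A ephrins, 3 B ephrins, 3 Slits and netrin 1. The receptors were 2 neuropilins, 9 plexins, 9 EphA and 5 EphB receptors, 4 Robo receptors, and Dcc with 4 Unc5 receptors.

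A new olfactory sensory neuron has to send an axon to the olfactory bulb, and neurons that use the same odorant receptor converge there. Secreted semaphorins act through a neuropilin, which binds the ligand, and a plexin A, which signals inside the growth cone. Slits are read by Robo receptors, netrin 1 by Dcc and Unc5 receptors, and ephrins by Eph receptors on a touching membrane, where the ephrin can also signal back. In mouse olfactory axons Nrp1 and Sema3a are known for sorting along the front-to-back axis, Nrp2, Robo2, Sema3f and Slit1 for dorsal and ventral targeting, and ephrin A5 for map precision.

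Transcripts of single cells of the mouse olfactory epithelium were measured after capture with the Fluidigm C1 system and amplification of polyadenylated RNA, and all animals were 8 weeks old. Cells of the genotype OMP-eGFP+ from the strain B6 OMP-eGFP, whose reporter marks mature olfactory neurons, came from epithelium after transplantation (called engrafted, 89 libraries, of which 29 were analysed) and from 14 days after olfactory bulbectomy (50, of which 42). Cells of the genotype Neurog1-eGFP+ from FVB Neurog1-eGFP mice, whose reporter marks neuronal precursors and their recent progeny, came from uninjured epithelium (61, of which 46) and from 5 days (51, of which 48) and 14 days (26, of which 25) after bulbectomy, which removes the target of the axons and kills the neurons that reach it. The reference was uninjured epithelium of wildtype B6;129SF1/J (F1) mice with no reporter, in 2 runs of 96 libraries, of which 68 and 70 were analysed. Strain and sort cannot be told apart in any comparison between the 3 kinds of animal. The labels give no animal, sex or host of the transplant, so each group counted as 1 sample: no difference has a replicate check and no p-value was computed.

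Median depth per group lay between 501827 (engrafted) and 1347935 (OMP, 14 days) recovered fragments. At these depths 10 CPM (the CPM scale gives each gene as a share of its library), the level at which a gene was called found in a cell, stood for about 5.02 to 13.5 fragments. Summed mature neuron markers had medians of 15412 CPM in engrafted cells and 15566 CPM in OMP cells at 14 days, against 1075 to 1546 CPM in the Neurog1 sorts and 7735 CPM in the reference. Neurog1 itself was listed at 0 in every OMP cell of both groups. Summed sustentacular cell markers had medians of 0 to 24.6 CPM in the sorts and 8249 CPM in the reference, which holds support cells as well as neurons. Omp was found in 89.9% and the sustentacular marker Cyp2g1 in 75.4% of reference cells, so many of them held both. In reference run 1, 9 libraries with more than 10000 genes stood apart from all others, and 2 of the 5 day Neurog1 libraries had 5 or more sustentacular markers (called the sustentacular-marker libraries here).

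Every cell outside the reference expressed guidance genes. The median cell had 6 of the 66 found in engrafted cells, 8 in OMP cells at 14 days, 7, 6.5 and 6 in Neurog1 cells (uninjured, 5 days and 14 days), and 6 in the reference. Of the 66 genes, 50 were found in at least 1 sorted cell and 21 in 20% or more of the cells of a group. In 13 cases (Epha1, Epha6, Epha10, Ephb3, Ephb4, Sema3b, Sema3c, Sema4a, Sema5a, Sema5b, Slit3, Unc5c and Unc5d) a gene was found in reference cells and in no sorted cell. Epha2 and Sema3g reached 10 CPM in no cell, and Unc5a was listed at 0 in all.

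**Figure D1:**
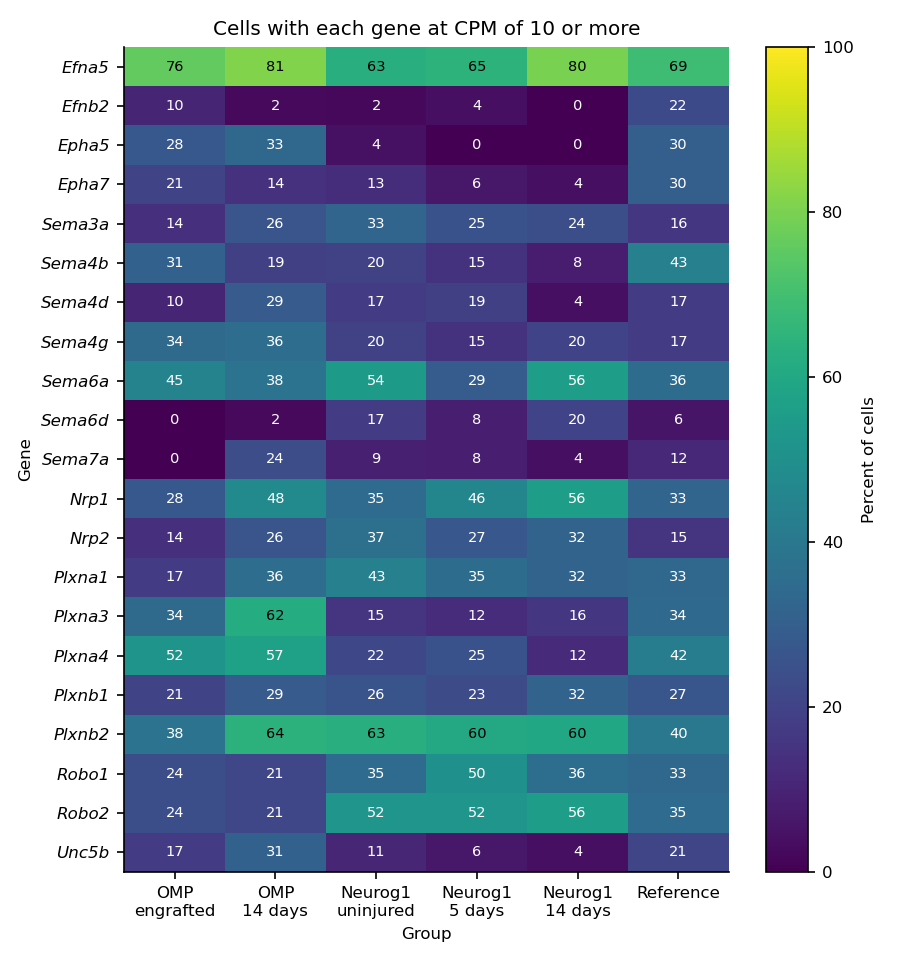
Percent of cells with each gene at 10 CPM or more, for the 21 guidance genes (rows) found in 20% or more of the cells of a group, in 6 groups (columns). Efna5 was the most widely found, at 63.04 to 80.95% of cells, and Epha5 is dark in the 3 Neurog1 columns, at 0 to 4.35%.

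Efna5, which encodes ephrin A5, had the highest level of any guidance gene on a scale that corrects for gene length. Its mean was 392.1 FPKM (fragments per kilobase of gene, scaled to depth) in engrafted cells and 195.2 FPKM in OMP cells at 14 days, 281.3, 308.8 and 349.2 FPKM in the Neurog1 sorts (uninjured, 5 days, 14 days), and 215.7 FPKM in the reference. With the other A ephrins it made up 42.5 to 57.2% of the summed mean FPKM of the 66 genes in every group, and Efna5 alone gave 82.1 to 99.6% of the A ephrin sum. It was found in 75.9% of engrafted cells and 80.95% of OMP cells at 14 days, in 63.04, 64.6 and 80% of Neurog1 cells, and in 68.8% of the reference. Within each group single cells ran from 0 to highs between 6939 and 20132 CPM, so the spread among cells of a group was wider than any spread among group means. The median cell had 856 CPM in the engrafted group and 600 CPM in OMP cells at 14 days. In the Neurog1 sorts the median was 533, 408.6 and 1124 CPM, and in the reference 246.9 CPM.

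After the A ephrins, the make-up of the families differed by sort. In the Neurog1 sorts neuropilins gave 13.4, 14.1 and 13.7% of the summed FPKM (uninjured, 5 days, 14 days) and Robo receptors 14.6, 9.20 and 8.20%. Neuropilins gave 6.22% in engrafted cells and 10.7% in OMP cells at 14 days, against 4.20% in the reference. Plexins gave 19.1% in OMP cells at 14 days and 5.95% in engrafted cells. EphA receptors gave 4.59% in engrafted cells, 2.93% in OMP cells at 14 days, 0.0713 to 1.16% in the Neurog1 sorts and 7.11% in the reference. B ephrins gave 6.15% in the reference, where Efnb2 was 95.7% of their sum, and at most 1.73% in any sort. Slits, the Robo ligands, gave at most 0.281% in all 6 groups.

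**Figure D2:**
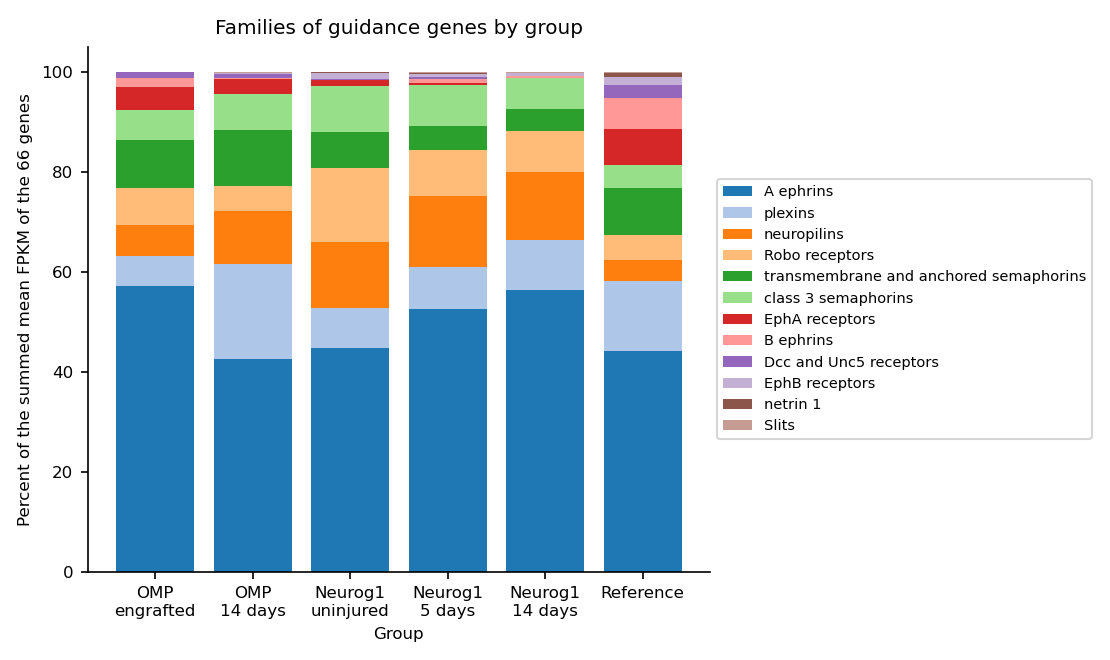
Stacked bars of the share of each of 12 guidance gene families in the summed mean FPKM of the 66 genes (vertical axis, percent) in each group (horizontal axis). A ephrins are the largest block in all 6 groups, at 42.5 to 57.2%.

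OMP cells, sorted by the mature neuron reporter, were set against Neurog1 cells at the same time after injury, 14 days after bulbectomy. Epha5, a receptor for A ephrins, and the semaphorin receptors Plxna3 and Plxna4 were found in more OMP cells, while Robo2 and Nrp2 had higher mean levels in Neurog1 cells. Of the 66 genes 29 were measured, that is, had a mean of 5 CPM or more in either group. Of these, 11 were at least 2-fold higher in OMP cells, as were 32.4% of all genes measured, and 9 were at least 2-fold lower, against 28.6% of all genes. These shares lie near those of all genes, and the median log2 ratio of mean CPM + 1 was 0.03 for guidance genes and 0.04 for all genes. For 3 of the 29 the intervals of the 2 shares of cells did not overlap, against 4.03% of all genes. All intervals given are exact Clopper-Pearson 95% intervals, which reflect the number of cells and no variation between animals. The share that a count of 0 allows is given as 3 cells of the total, not as an interval bound.

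Epha5 was found in 14 of 42 OMP cells, a share of 33.3% (19.6 to 49.5%), and in 0 of 25 Neurog1 cells, which allows a share of up to 12%. OMP cells had a mean of 40.7 CPM, a median of 0 and a highest cell of 645 CPM, while all Neurog1 cells of that day were at 0. Set against a floor of 3 fragments over the Neurog1 group, the mean was 370.8-fold higher in OMP cells. That floor covers the counting of fragments only, and the share that 25 cells allow leaves room for a much smaller difference. Of the other Neurog1 cells, 2 of 46 uninjured and 0 of 48 at 5 days had Epha5. It was again found in 8 of 29 engrafted cells and in 30.4% of reference cells, which come from another strain. Among reference cells in clusters like mature neurons it was found in 18 of 41, and among reference cells in clusters like sustentacular cells in 5 of 56.

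Plxna3, whose plexin serves class 3 semaphorins with either neuropilin, was found in 61.9% of OMP cells (45.6 to 76.4%) and 16% of Neurog1 cells (4.54 to 36.1%). The median and highest cells were 28 and 1116 CPM among OMP cells, against 0 and 309.1 CPM among Neurog1 cells. Its mean was 170 CPM against 16.9 CPM, a log2 ratio of 3.25, and 4.68 without the highest cell of each group. Plxna4, the partner plexin in many sensory axons, was found in 57.1% of OMP cells (40.96 to 72.3%) and 12% of Neurog1 cells (2.55 to 31.2%). Its median and highest cells were 16.7 and 740 CPM among OMP cells, against 0 and 549 CPM among Neurog1 cells. In both genes the ranges of single cells overlapped, and the groups differed in how many cells had the gene. With every cell thinned to 100000 fragments the shares were 33.3% against 0% for Epha5, 64.3% against 24% for Plxna3 and 54.8% against 20% for Plxna4. At that equal depth the intervals stayed apart for Epha5 and Plxna3 and overlapped for Plxna4, at 38.7 to 70.2% in OMP cells and 6.83 to 40.7% in Neurog1 cells.

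The other genes higher in OMP cells were less widespread. Sema3e, a secreted semaphorin that binds Plxnd1, averaged 71.5 CPM in OMP cells and 0.755 CPM in Neurog1 cells and was found in 16.7% against 4% of them. Unc5b, a netrin receptor, averaged 25.5 against 1.15 CPM and was found in 30.95% against 4%. Sema7a, a membrane-anchored semaphorin that signals through Plxnc1 and integrins, averaged 14.8 against 1.45 CPM (23.8% against 4% of cells), and Sema4d, a ligand of Plxnb1, 62.4 against 6.39 CPM (28.6% against 4%). Epha7 averaged 30.8 against 1.09 CPM, and Plxnc1, Sema3f and Sema4b were higher with OMP means under 12 CPM. Sema4g, a transmembrane semaphorin, was within 2-fold, at 49.3 CPM in OMP cells and 27.6 CPM in Neurog1 cells (35.7% against 20% of cells). The log2 ratio of Sema3f was 2.86, and 0.90 without the highest cells. All these intervals of shares overlapped between the groups.

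Robo2, the Slit receptor known for dorsal targeting, was found in 21.4% of OMP cells (10.3 to 36.8%) and 56% of Neurog1 cells (34.9 to 75.6%). Its median was 0 CPM among OMP cells and 22.03 CPM among Neurog1 cells, with highest cells of 1676 and 5033 CPM. The means were 103.9 CPM in OMP cells and 313.5 CPM in Neurog1 cells, a log2 ratio of -1.58 that was -0.82 without the highest cells. Nrp2 averaged 30.8 CPM in OMP cells and 146.4 CPM in Neurog1 cells, a log2 ratio of -2.21, at shares of 26.2% and 32%. Among the cells with Nrp2 the median was 62.5 CPM in OMP cells and 317.7 CPM in Neurog1 cells, so the level differed more than the share of cells. Sema6d was found in 1 of 42 OMP cells and 5 of 25 Neurog1 cells. Efna4, Efnb1, Ephb2, Plxna1, Plxnd1 and Slit2 were also at least 2-fold lower in OMP cells. Single cells carried much of this: without the highest cells Plxnd1 went to a log2 ratio of -1.41 (-5.01 with them), Slit2 to -0.47 (-3.21) and Plxna1 to -0.76 (-1.43).

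**Figure D3:**
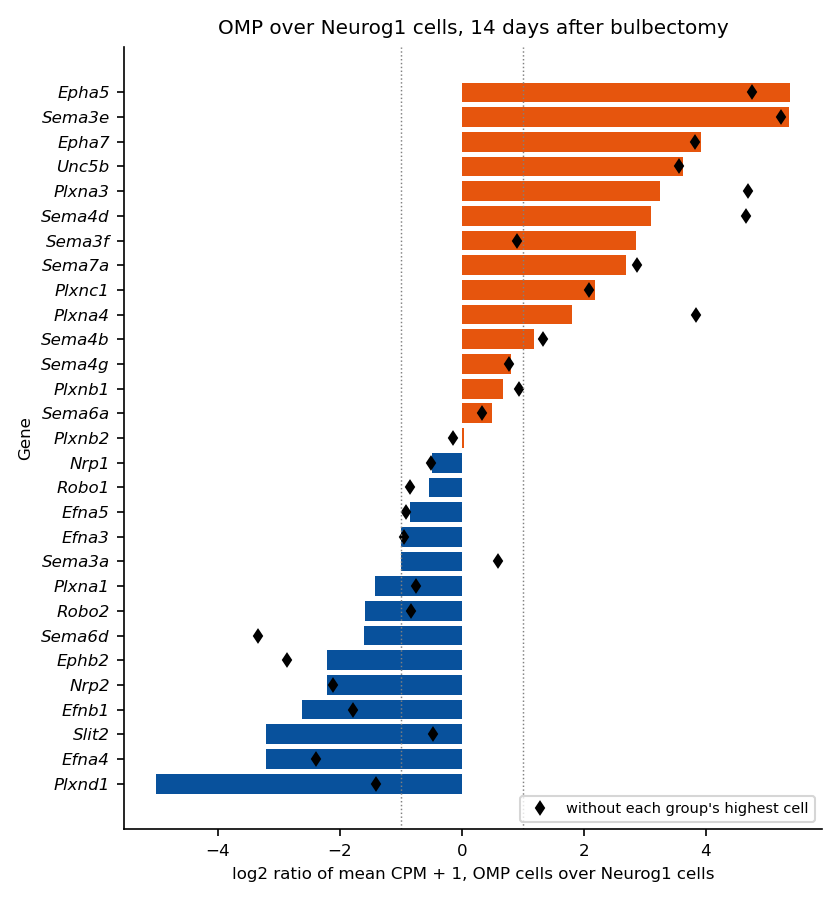
Bars show the log2 ratio of mean CPM + 1 in OMP cells over Neurog1 cells at 14 days (horizontal axis) for the 29 guidance genes measured, and diamonds the same ratio without each group's highest cell; dotted lines mark 2-fold. Epha5 and Sema3e stand at 5.38 and 5.37, values that depend on the added 1 CPM, while the diamond of Slit2 lies at -0.47.

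Marker levels moved with this comparison. Of the 12 mature neuron markers 11 were found in 20% or more of the OMP cells and 6 in 20% or more of the Neurog1 cells at 14 days, and Cngb1 was at 0 in both. Summed immature neuron markers had medians of 4812 CPM in OMP cells and 5813 CPM in Neurog1 cells. The growth cone protein Gap43 was found in 88.1% of OMP cells and 72% of Neurog1 cells. Of the 25 Neurog1 cells 7 lay in a cluster like immediate neuronal precursors, and 4 and 9 in clusters like immature neurons. Neither sort is thus a single stage by these markers. The part of the markers in the guidance genes was not tested.

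Downstream genes of guidance signalling, a list of 54, were read in the same cells. Of 38 measured, 8 were 2-fold or more higher and 14 were 2-fold or more lower in OMP than in Neurog1 cells at 14 days, against 32.4% higher and 28.6% lower of all genes. The median log2 ratio was 0.33 for the list and 0.04 for all genes. The collapsin response mediators, which carry semaphorin signals to the cytoskeleton, were lower. Dpysl3 averaged 207.1 CPM in OMP cells and 983 CPM in Neurog1 cells (42.9% against 96% of cells), Dpysl5 48.9 against 391.4 CPM (40.5% against 84%), Dpysl2 4280 against 13490 CPM and Crmp1 49.8 against 198.8 CPM. Rgmb, a repulsive guidance molecule, was found in 9.52% of OMP cells and 52% of Neurog1 cells. Lower with these were Fyn, Rac1, Cfl1, Enah, Ptk2 and Adam10. Kalrn, a guanine nucleotide exchange factor, was higher (490 against 180.7 CPM), as were Mical3 (131.7 against 12.5 CPM) and Arhgef12, which acts below B plexins (80.2 against 35.98 CPM).

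The promoters of Epha5 and Plxna3, which were found in more OMP than Neurog1 cells, are shown beside those of Plxnb1 and Sema4b, which hold a site letter pattern of the EBF factors of olfactory neurons. Each is 250 bases before to 50 after a gene start, from RefSeq on GRCm38.p6, while the expression files use mm9. Capitals mark the EBF pattern, which is TCCC and GGGA with any 2 bases between, or TAATTA, a homeodomain pattern. Each reads the same on both strands and they share no bases.
Epha5, chr5:84417333-84417632, minus strand: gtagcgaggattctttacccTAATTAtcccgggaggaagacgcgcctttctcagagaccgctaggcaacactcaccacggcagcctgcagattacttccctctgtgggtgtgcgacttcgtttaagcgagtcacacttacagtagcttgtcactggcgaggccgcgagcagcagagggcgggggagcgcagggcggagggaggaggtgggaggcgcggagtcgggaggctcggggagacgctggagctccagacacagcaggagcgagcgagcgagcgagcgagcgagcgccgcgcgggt
Plxna3, chrX:74328816-74329115, plus strand: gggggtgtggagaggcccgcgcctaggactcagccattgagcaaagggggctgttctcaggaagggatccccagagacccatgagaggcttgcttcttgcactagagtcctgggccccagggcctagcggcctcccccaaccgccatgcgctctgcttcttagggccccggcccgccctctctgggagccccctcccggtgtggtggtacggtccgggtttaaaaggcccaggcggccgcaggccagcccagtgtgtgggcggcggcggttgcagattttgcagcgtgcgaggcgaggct
Plxnb1, chr9:109095186-109095485, plus strand: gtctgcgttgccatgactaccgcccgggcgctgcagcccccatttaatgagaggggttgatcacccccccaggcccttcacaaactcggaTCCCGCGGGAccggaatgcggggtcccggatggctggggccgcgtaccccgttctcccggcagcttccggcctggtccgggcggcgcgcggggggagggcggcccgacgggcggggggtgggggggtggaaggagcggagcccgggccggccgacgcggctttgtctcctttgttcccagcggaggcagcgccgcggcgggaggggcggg
Sema4b, chr7:80186620-80186919, plus strand: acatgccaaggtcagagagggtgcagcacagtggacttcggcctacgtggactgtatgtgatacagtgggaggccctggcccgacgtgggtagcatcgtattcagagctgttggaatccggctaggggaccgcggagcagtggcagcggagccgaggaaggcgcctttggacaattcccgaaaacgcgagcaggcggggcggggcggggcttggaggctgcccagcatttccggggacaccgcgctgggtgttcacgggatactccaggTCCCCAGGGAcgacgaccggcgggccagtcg

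TAATTA stood once in the Epha5 window, and Plxna3 held neither pattern. A window at another Sema4b start, not shown, also held neither. The EBF pattern was in the windows of Plxnb1, Robo3 and Sema4b, 3 of 72 windows of the 56 guidance genes matched (4.17%), against 0.904% of the 32851 windows of all genes. TAATTA was in 3 of the 72 windows (Efna1, Epha5 and Robo3), against 5.29% of all windows. A letter match describes a sequence and is not a binding site.

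Precursor-lineage cells were set against the mixed wildtype epithelium by comparing the uninjured Neurog1 sort with the reference. Both neuropilins, Sema3a and Robo2 were higher in Neurog1 cells, while Epha5, Efnb2, Ntn1 and Sema4b were lower. Of 40 guidance genes measured 11 were at least 2-fold higher (22.4% of all genes) and 20 at least 2-fold lower (32.6% of all genes). The median log2 ratio was -1.0, against -0.16 for all genes. For 6 of the 40 (Efnb2, Epha5, Nrp2, Ntn1, Sema3e and Sema4b) the intervals of shares did not overlap, against 9.8% of all genes. Those of Efnb2, Epha5 and Nrp2 were also apart with cells thinned to 100000 fragments and without the 9 large reference libraries. Without those libraries Sema3e overlapped, at 0 to 7.71% in Neurog1 cells and 3.24 to 12.8% in the reference. Ntn1 and Sema4b overlapped both without those libraries and in thinned cells, where Ntn1 had 1.40 to 18.3% in Neurog1 cells and 16.04 to 30.8% in the reference, and Sema4b 20 to 48.95% and 41.3 to 58.7%.

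Nrp2 was found in 37.0% of uninjured Neurog1 cells (23.2 to 52.5%) and 15.2% of reference cells (9.67 to 22.3%), and in 9.30% of the reference without the 9 large libraries. Its mean was 74.02 CPM in Neurog1 cells and 14.6 CPM in the reference (6.38 CPM without those 9), with highest cells of 1582 and 215.8 CPM. Nqo1, a gene of dorsal neurons, was found in 21.7% of Neurog1 cells and 79.7% of the reference. Ncam2, a gene of ventral neurons, was found in 43.5% and 15.9%. The reference shares cover support cells as well, and among neuron-like reference cells Nqo1 was found in 70.7%. They do not give the zone make-up of neurons alone. The part of zone in the Nrp2 values was not tested. Nrp1, the receptor of Sema3a, averaged 472 CPM in Neurog1 cells and 131.4 CPM in the reference, but was found in 34.8% and 32.6% of cells. Among cells with Nrp1 the median was 1614 CPM in Neurog1 cells and 136.5 CPM in the reference, so the level differed more than the share of cells. Sema3a itself averaged 352.8 against 84.6 CPM and was found in 32.6% against 15.9% of cells. Robo2 averaged 604 CPM in Neurog1 cells and 170 CPM in the reference (52.2% against 34.8% of cells), and 1 Neurog1 cell at 16770 CPM held 60.3% of the group's sum. Sema6a, which binds plexin A receptors, averaged 224.9 against 105.8 CPM (54.3% against 35.5%). Efna4, Ephb2, Plxnc1, Plxnd1, Robo4 and Sema6d were at least 2-fold higher with Neurog1 means of 12.2 to 50.4 CPM.

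On the lower side, Efnb2, a ligand of EphB receptors, was found in 2.17% of Neurog1 cells (0.0550 to 11.5%) and 22.5% of the reference (15.8 to 30.3%), with means of 0.385 and 150 CPM. Ntn1 was found in 2.17% against 18.8% of cells and Sema4b in 19.6% against 43.5%. Plxna3 averaged 28.2 CPM in Neurog1 cells and 138.98 CPM in the reference, Plxna4 33.3 against 190.6 CPM, Epha5 1.42 against 85.8 CPM and Unc5b 8.50 against 81.98 CPM. Sema3e was found in 0 of 46 Neurog1 cells, which allows up to 6.52%, and in 13.04% of reference cells, or 6.98% without the 9 large libraries. Efna3 turned round without the large libraries: 9.04 CPM in Neurog1 cells stood against 26.9 CPM in the whole reference and 5.62 CPM without them. Sema5a and Plxna2 rested on single reference cells, which held 98.5% and 92.2% of the reference sum.

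The classes of reference cells differed in these genes. Clusters were made without the guidance and signalling genes and named from marker lists. In sustentacular-like clusters Efnb2 and Ntn1 were each found in 15 of 56 reference cells and Sema4b in 26 of 56. In mature neuron-like clusters the counts were 0, 0 and 7 of 41. Ephb1, a receptor of B ephrins, was found in 6 of 56 sustentacular-like and 0 of 41 neuron-like reference cells. In 1 of the 2 sustentacular-like clusters (27 cells) 25 cells came from run 2, and it was named on 4 of 10 markers. A further cluster of 19 cells, all from the reference, had 10 of 10 sustentacular markers but was left unnamed. Its cells are not among the 56. Efnb2 was found in 31 reference cells in all, so cells outside the 56 and the 41 had it too. Sustentacular markers were higher in the reference than in the Neurog1 sort over the whole list: all 10 were found in 20% or more of reference cells and none in 20% of the sort, where Hes1 was at 0. Their part in the lower values of the sort was not tested.

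Within the Neurog1 sorts the guidance genes varied with cluster. Plxna1 was found in 13 of 20 mature neuron-like, 26 of 60 immature neuron-like and 3 of 29 immediate neuronal precursor-like cells. Plxna4 had 8 of 20, 14 of 60 and 2 of 29 in the same order, and Plxnb2, a receptor of class 4 semaphorins, 10 of 20, 46 of 60 and 15 of 29. Efna5 and Robo2 ran the other way from Plxna1 and Plxna4, Efna5 at 11 of 20, 40 of 60 and 26 of 29, and Robo2 at 9 of 20, 32 of 60 and 20 of 29. Nrp1 was found in 8 of 20, 28 of 60 and 13 of 29 cells. Epha5 was found in 1 of 20 mature neuron-like cells of the Neurog1 sorts and in 0 of 60 and 0 of 29 of the others. One of the immature clusters was led by Trib3, Slc7a11 and Edem1, which respond to stress. Of the 20 mature neuron-like cells, 5 uninjured, 4 at 5 days and 2 at 14 days lay in cluster 5. That cluster was named on 6 of 12 markers and had a median of 214771 fragments. The medians were 947829 and 1112102 in the immature clusters and 856404 in the precursor-like one. The part of depth was not tested.

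Of 42 signalling genes measured in the uninjured Neurog1 sort, 15 were at least 2-fold higher than in the reference and 9 at least 2-fold lower, against 22.4% higher and 32.6% lower of all genes. The median log2 ratio was 0.47 for the list and -0.16 for all genes. Chn1, a Rac-inactivating protein that acts below EphA receptors, averaged 231.9 CPM in Neurog1 cells and 22.03 CPM in the reference (52.2% against 16.7% of cells). Fyn, a kinase used by semaphorin receptors, averaged 131.2 against 23.03 CPM, and the growth cone protein Gap43 466.5 against 109.4 CPM. Dpysl2, Dpysl3, Dpysl5, Mical2 and Trio were higher too. Srgap2, which works with Robo receptors, was found in 8.70% of Neurog1 cells and 31.9% of the reference and was lower, as was Nck2.

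Injury was followed through the Neurog1 sort at 0, 5 and 14 days. Sema6a had a lower mean at both times after bulbectomy, while Nrp2, Robo2 and Plxnb2 were found in shares of cells whose intervals overlapped between the times. At 5 days over uninjured, 6 of 34 guidance genes measured were at least 2-fold higher (20.9% of all genes) and 10 at least 2-fold lower (26.3%). Without the 2 sustentacular-marker libraries 4 were higher (Dcc, Efnb2, Sema3e and Slit2), and Robo1 and Ephb1 no longer counted. At 14 days over uninjured, 2 of 30 were higher (22% of all genes) and 11 lower (29.9%), with median log2 ratios of -0.67 for guidance genes and -0.17 for all genes. At 14 over 5 days, 5 of 30 were higher (23.8% of all genes) and 9 lower (27.1%). No guidance gene had intervals of shares that were apart in these 3 comparisons, against 0.438%, 0.29% and 0.163% of all genes. The comparisons share groups, so their values are not independent.

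Sema6a averaged 224.9, 79.03 and 86.1 CPM in the Neurog1 sort (uninjured, 5 days, 14 days). It was found in 54.3, 29.2 and 56% of cells, with highest cells of 2099, 1165 and 592 CPM. Among the cells with the gene the median was 317.6, 67.7 and 93.9 CPM, so those cells had less of it at both times after injury, and at 5 days fewer cells had it. Robo2 averaged 604, 237.3 and 313.5 CPM at shares of 52.2, 52.1 and 56%, and without the highest cells its log2 ratio of 5 days over uninjured was -0.25 (-1.34 with them). Robo1, the other main Slit receptor, averaged 96.3, 209.4 and 108.98 CPM and was found in 34.8, 50 and 36%. Without the 2 sustentacular-marker libraries Robo1 averaged 130.5 CPM at 5 days, and its log2 ratio of 5 days over uninjured was 0.43 (1.11 with them). Nrp1 was found in 34.8, 45.8 and 56% of cells with means of 472, 458.7 and 370 CPM. Nrp2 had shares of 37.0, 27.1 and 32% and means of 74.02, 55.99 and 146.4 CPM.

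Plxnb2 was found in 63.04, 60.4 and 60% of cells, Plxnb1 in 26.1, 22.9 and 32% and Sema3a in 32.6, 25.0 and 24%. Epha7 averaged 48.3, 7.10 and 1.09 CPM and was found in 6, 3 and 1 cells. Sema4d, Sema4b and Unc5b were lower at 14 days, each found in 1 or 2 of 25 cells. Several of the ratios rest on few cells: Robo4 was found in 2 uninjured cells, Sema3d in 1, and Ephb2 had 1 uninjured cell at 1572 CPM, and without the highest cells its log2 ratio of 5 days over uninjured turned to 0.39 (-2.36 with them). Efnb2 at 5 days was found in 2 cells, and its log2 ratio of 5 days over uninjured was 3.81, or 2.27 without the 2 sustentacular-marker libraries, with means of 18.4 and 5.70 CPM at 5 days. Ephb1 rested on them too, at a mean of 9.38 CPM at 5 days with them and 1.05 CPM without. Slit2, found in 6 of 48 cells at 5 days, averaged 2.2, 12.3 and 11.9 CPM.

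The mature neuron markers Omp and Stoml3 had lower means after injury. The median summed level of the marker list was not lower, but its highest cells were. Omp averaged 854, 118.2 and 96.9 CPM in the Neurog1 sort (uninjured, 5 days, 14 days) and Stoml3 734, 68.7 and 7.02 CPM, found in 47.8, 14.6 and 4% of cells. Of the 12 mature markers 7, 5 and 6 were found in 20% or more of cells. Their summed levels had medians of 1075, 1546 and 1089 CPM and highest cells of 39245, 9741 and 8674 CPM. Their part in the lower values of Epha7, Unc5b, Sema4d and Sema4b was not tested.

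In the signalling list 8 of 43 genes measured were past 2-fold on the higher side and 12 on the lower side at 5 days over uninjured, near the 20.9% and 26.3% of all genes. Gap43 averaged 466.5, 988 and 850 CPM and Adam10, the protease that cleaves ephrins, 519, 1057 and 655 CPM (uninjured, 5 days, 14 days). Limk2, a kinase that inactivates cofilin, averaged 92.8, 7.83 and 33.8 CPM and was found in 43.5, 10.4 and 20% of cells. Trio, Kalrn, Rac1 and Arhgef12 were lower at 5 days. At 14 days over uninjured 5 of 38 were higher, among them Rgmb (210 against 49.8 CPM) and Enah, and 11 lower, among them Chn1 (94.2 against 231.9 CPM), Trio, Limk2, Mical2, Mical3 and Arhgef12, against 22% higher and 29.9% lower of all genes. At 14 over 5 days 10 of 42 were higher, among them Crmp1, Rac1, Ptk2 and Kalrn, and 10 lower, among them Rock1, against 23.8% and 27.1% of all genes.

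**Figure D4:**
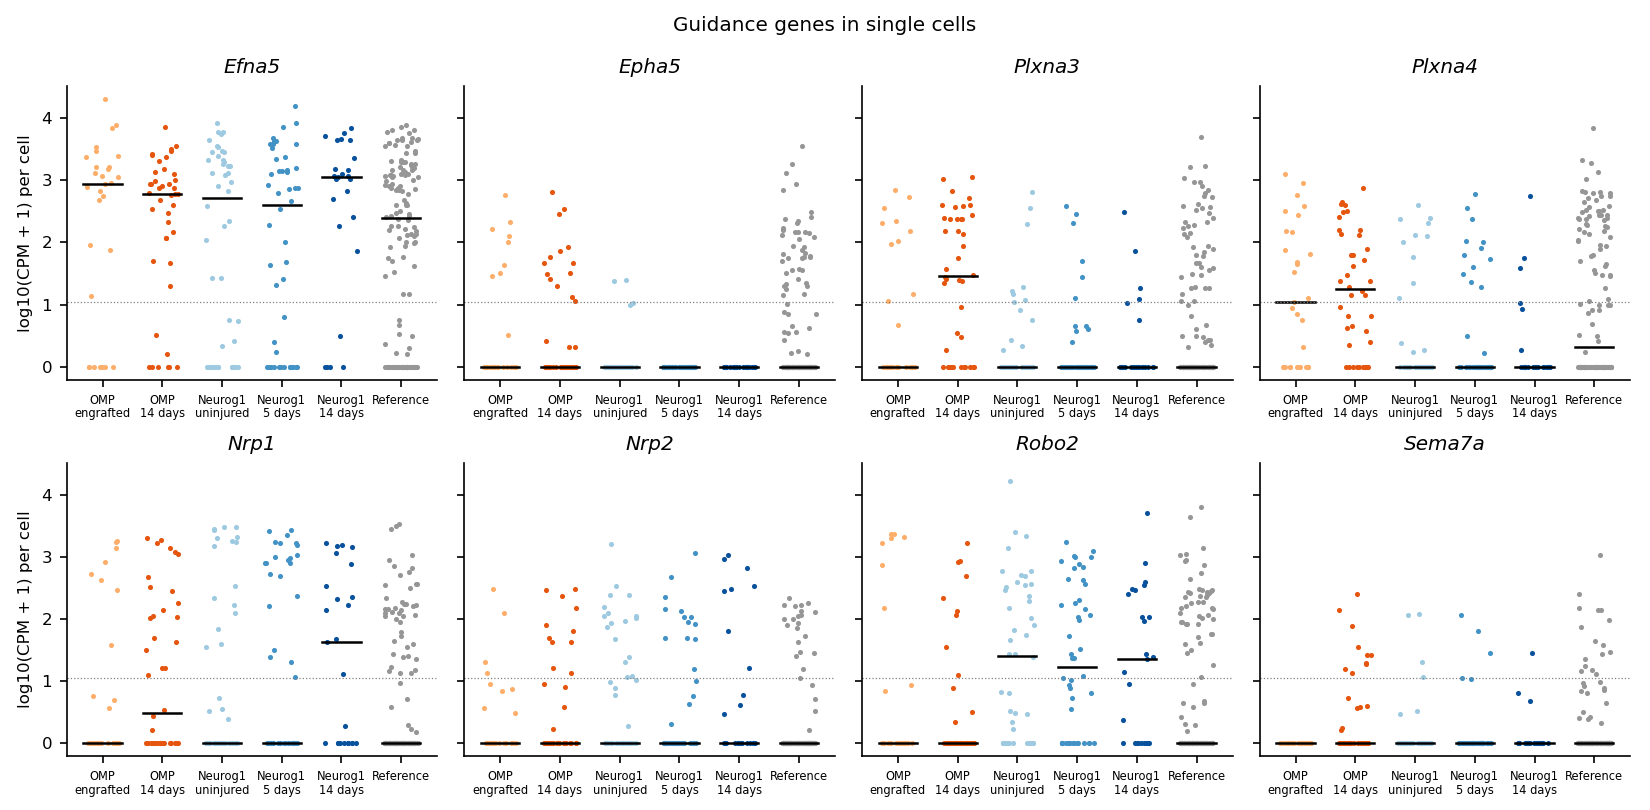
Each point is a cell, with log10(CPM + 1) on the vertical axis for 8 guidance genes in 6 groups; black lines are medians and the dotted line is 10 CPM. Epha5 points above the dotted line are absent from the 5 and 14 day Neurog1 groups, and Sema7a is 0 in all 29 engrafted cells.

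Among OMP cells, the engrafted group was set against 14 days after bulbectomy. Plxnb2, Plxna3 and Sema7a were lower in engrafted cells and Robo2 had a higher mean. Of 27 guidance genes measured 6 were at least 2-fold higher (21.7% of all genes) and 7 at least 2-fold lower (35% of all genes), with medians of 0.12 for guidance genes and -0.34 for all genes. Intervals were apart for 1 of 27, Sema7a, against 1.48% of all genes. The engrafted cells were shallower, with a median of 501827 fragments against 1347935. The make-up of the cells differed as well. Summed immature neuron markers had medians of 1813 CPM in engrafted cells and 4812 CPM at 14 days, and Omp was found in 75.9% against 97.6% of cells. Of the 29 engrafted cells 5 lay in the precursor-like cluster, 4 in a sustentacular-like one and 5 in the mature neuron-like cluster 9, against 0, 2 and 24 of the 42 cells at 14 days. The part of depth and make-up in the differences between these groups was not tested.

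None of the 29 engrafted cells had Sema7a, a result that allows a share of 10.3%, and 10 of 42 OMP cells at 14 days did (23.8%, 12.1 to 39.5%). Its mean of 14.8 CPM at 14 days made it 81.3-fold lower in engrafted cells, set against a floor of 3 fragments over that group. That floor covers the counting of fragments only, and the share that 29 cells allow leaves room for a much smaller difference. In cells thinned to 100000 fragments Sema7a was found in 0 of 26 engrafted cells (0 to 13.2%) and 10 of 42 at 14 days (12.1 to 39.5%), intervals that overlapped. Plxnb2 averaged 51.7 CPM in engrafted cells and 299.3 CPM at 14 days, with medians of 0 and 84.04 CPM and shares of 37.9 and 64.3%. Plxna3 averaged 82.9 against 170 CPM (34.5% against 61.9% of cells), whereas Plxna4 was found in 51.7% against 57.1%. Robo2 averaged 391.9 CPM in engrafted cells and 103.9 CPM at 14 days at shares of 24.1 and 21.4%, with medians of 2020 and 220 CPM among the cells that had it. Efna5 averaged 2029 against 1007 CPM, with 1 engrafted cell holding 34.2% of the sum.

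Robo1, Sema3f, Sema6a and Sema6d were also at least 2-fold lower in engrafted cells. Of the higher genes, Dcc and Epha3 were found in 1 engrafted cell each, Efnb2 in 3, with 1 cell holding 89.02% of the sum, and Sema4d turned from a log2 ratio of 1.67 to -0.21 without the highest cells. Of 36 signalling genes measured 4 were at least 2-fold higher and 15 lower, against 21.7% and 35% of all genes, with medians of -0.63 for the list and -0.34 for all genes. Gap43 was found in 41.4% of engrafted cells and 88.1% at 14 days, with means of 272.1 and 695 CPM, and Kalrn, Mical2 and Dpysl3 were lower as well.

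Regenerated neurons were set against wildtype neuron-like cells by comparing OMP cells at 14 days with the 41 reference cells in mature neuron-like clusters. Those 41 also carried sustentacular markers: Cyp2g1 was found in 48.8% of them and in 9.52% of the OMP cells. Summed sustentacular markers had medians of 906 CPM in the 41 and 0 CPM in the OMP cells. The OMP cells had more Nrp2, Plxnb2, Plxnb1 and Sema3e, and less Plxna1, Plxna4, Epha5, Epha7 and Unc5b. Of 28 guidance genes measured 7 were at least 2-fold higher (35.5% of all genes) and 12 at least 2-fold lower (25.4% of all genes). The median log2 ratio was -0.24, against 0.26 for all genes, and no interval of shares was apart, against 6.58% of all genes. Different clusters held the 2 groups: of the 42 OMP cells 24 were in cluster 9 and 14 in the unnamed cluster 2, while of the 41 reference cells 22 were in cluster 3 and 18 in cluster 5. Cluster 5 was shallow, with a median of 214771 fragments, and was named on 6 of 12 markers. With 8 clusters 24 reference cells were mature neuron-like. The 41 reference cells held 19637060 recovered fragments in all, against 51397481 in the 42 OMP cells. The part of depth and of sustentacular transcripts in these differences was not tested.

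Nrp2 averaged 30.8 CPM in OMP cells and 3.78 CPM in reference neuron-like cells and was found in 26.2% (13.9 to 42.04%) against 7.32% (1.54 to 19.9%) of them. The shares of cells with zone genes differed as well. Nqo1, a gene of dorsal neurons, was found in 33.3% of OMP cells and 70.7% of reference neuron-like cells. Ncam2, a gene of ventral neurons, was found in 38.1% and 9.76%. The part of zone in the Nrp2 values was not tested. Plxnb2 averaged 299.3 against 114.4 CPM and was found in 64.3% against 34.1%. Plxna1 averaged 16.3 CPM in OMP cells and 181.1 CPM in reference cells at shares of 35.7 and 39.02%, and among cells with the gene the medians were 32.4 and 233.6 CPM. Epha5 averaged 40.7 against 148.2 CPM (33.3% against 43.9%), and Plxna4 94.6 against 375.4 CPM (57.1% against 53.7%). Sema5a, Sema4f and Efna1 were lower through 1 reference cell each, as their log2 ratios without the highest cells were 0, 0.25 and 0. In the signalling list 17 of 37 were at least 2-fold higher and 5 lower, against 35.5% and 25.4% of all genes, and Gap43 was found in 88.1% of OMP cells and 21.95% of reference cells. Cdc42, Rock1, Rock2, Srgap1, Kalrn, Adam10 and Dpysl3 were higher with it.

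Olfactory neurons are divided into dorsal ones that express Nqo1 and ventral ones that express Ncam2, and the sorted cells were split by these genes. Of the 190 sorted cells 78 had neither gene and 11 had both, so the split covers only part of them. Nrp2 was found in 24 of the 78 cells with neither (30.8%) and in 2 of the 11 with both. Nrp2 was found in 25 of 66 cells with Ncam2 and no Nqo1 (37.9%, 26.2 to 50.7%) and in 2 of 35 cells with Nqo1 and no Ncam2 (5.71%, 0.700 to 19.2%). The direction was the same in each of the 5 sorts: 2 of 11 Ncam2 cells against 0 of 4 Nqo1 cells in the engrafted group, 5 of 11 against 0 of 9 in OMP cells at 14 days, and 6 of 16 against 1 of 6, 8 of 18 against 1 of 11 and 4 of 10 against 0 of 5 in Neurog1 cells (uninjured, 5 days, 14 days). The Ncam2 cells were shallower, with a median of 856404 fragments against 1224783. With Acsm4 as the dorsal gene, chosen with detection levels after the data were seen, the counts were 24 of 69 and 1 of 31.

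Other guidance genes differed less by zone gene. Robo2 was found in 42.4% of Ncam2 cells and 51.4% of Nqo1 cells, Nrp1 in 48.5 and 42.9%, Efna5 in 80.3 and 82.9%, and Sema6a in 51.5 and 51.4%. Sema3f, the ligand of Nrp2, was found in 2 of 66 and 1 of 35. Epha5 was found in 10 of 66 Ncam2 cells and 2 of 35 Nqo1 cells, with intervals that overlapped. By sort it was found in 7 of 11 Ncam2 cells and 0 of 9 Nqo1 cells among OMP cells at 14 days. Engrafted cells went the other way, at 2 of 11 and 2 of 4. In Neurog1 cells the counts were 1 of 16 and 0 of 6, 0 of 18 and 0 of 11, and 0 of 10 and 0 of 5 (uninjured, 5 days, 14 days). In the pooled sorts Nrp2 was the only one of the 36 genes read this way whose intervals did not overlap. The share over all genes was not computed for this split, so this count has no background beside it. The pooled intervals mix cells of all sorts and of both sorted strains. Cells of a group share their library preparation.

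**Figure D5:**
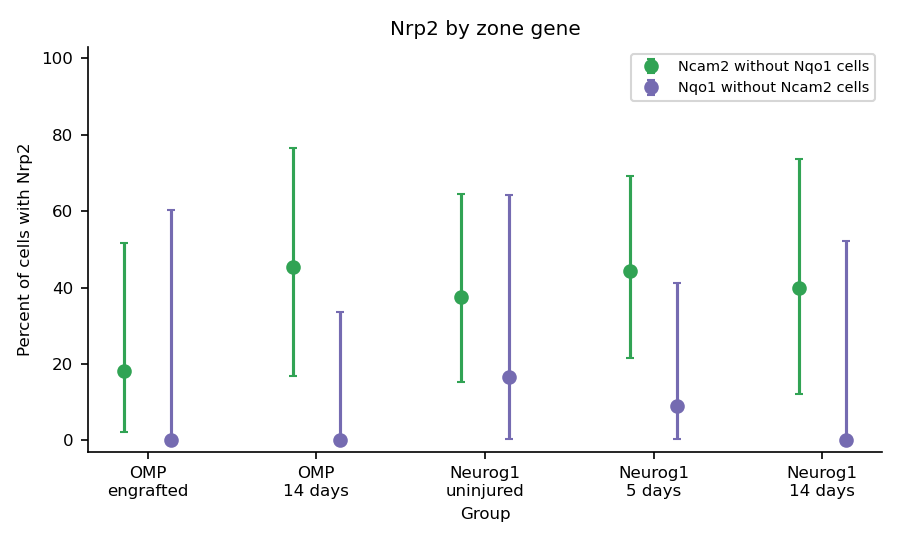
Points give the percent of cells with Nrp2 at 10 CPM or more (vertical axis) in cells with Ncam2 and no Nqo1 and in cells with Nqo1 and no Ncam2, for the 5 sorts (horizontal axis); bars are exact 95% intervals. The Ncam2 point lies above the Nqo1 point in each sort, and the bars of each sort overlap.

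Ligands and receptors were also read in the same cell. Nrp1 was found in 27.1% of the 48 sorted cells with Sema3a and in 47.2% of those without it. By group, Nrp1 was found with Sema3a in 0 of 4 engrafted cells against 8 of 25 without it, and in 5 of 11 against 15 of 31 OMP cells at 14 days. Among Neurog1 cells the counts were 3 of 15 against 13 of 31 (uninjured), 4 of 12 against 18 of 36 (5 days) and 1 of 6 against 13 of 19 (14 days). Hence a lower share of Nrp1 among Sema3a cells appeared in all 5 sorts, by a small margin in OMP cells at 14 days. In the reference Nrp1 was found in 45.5% of cells with Sema3a and 30.2% of those without it. That order turned round without the 9 large libraries, a setting chosen for these pairs after the data were seen, at 14.3% with Sema3a and 29.6% without.

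Plxna3 was found in 10 of 11 OMP cells with Nrp2 at 14 days and in 16 of 31 without it, and in 3 of 4 against 7 of 25 engrafted cells. In uninjured Neurog1 cells it was found in 1 of 17 cells with Nrp2 and 6 of 29 without, against 3 of 13 and 3 of 35 at 5 days and 2 of 8 and 2 of 17 at 14 days, where the order was the other way. Plxna1 was found in 25% of all sorted cells with Nrp1 and in 40.9% of those without it. By sort the counts were 0 of 8 against 5 of 21 engrafted cells and 4 of 20 against 11 of 22 OMP cells at 14 days. In Neurog1 cells they were 8 of 16 against 12 of 30 (uninjured), 4 of 22 against 13 of 26 (5 days) and 4 of 14 against 4 of 11 (14 days). Epha5 and Efna5 were found together in 10 OMP cells at 14 days and 7 engrafted cells. Robo2 was found in 41.5% of all sorted cells with Robo1 and 41.6% of those without it. By sort the shares were 14.3% against 27.3% in engrafted cells, 22.2% against 21.2% in OMP cells at 14 days, and 50% against 53.3%, 50% against 54.2% and 44.4% against 62.5% in Neurog1 cells (uninjured, 5 days, 14 days). Slit1, a ligand of both, was found in 5 of 190 sorted cells, and Ntn1 and Dcc shared no sorted cell.

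The remaining 31 guidance genes were low. None averaged above 15.7 CPM or was found in more than 13.04% of cells in any of the 6 groups, and Sema3f in uninjured Neurog1 cells had both values. Plxnc1 was found in 1 to 6 cells of each sort. Epha4, a receptor for both ephrin classes, was found in 1 sorted cell and Epha8 in 1. Robo3, known from commissural axons, was found in 2. The libraries' strand was not stated, so reads of genes that overlap on opposite strands cannot be told apart.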

How the data were processed

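The deposited signal values are gene-level fragment abundances scaled by the authors, as library sums of 483147 to 651792 show; the authors' FPKM values are the same libraries per kilobase of gene and scaled to depth. The submitters' processing notes name mm9, Cuffnorm, Cufflinks 2.2.1, STAR 2.5.2a and FastQC, with no roles; the annotation is not given in the sources used here. Of the deposited signal values above 0, 99.4% were not whole, so no count test was run. Fragments were recovered from each library's smallest step: a median of 98.2% of values were whole multiples within 0.02.

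Libraries with 1000 or more genes were kept, signal was divided by the library sum to give CPM, and 27 date-altered gene names (0.418% of signal) were left out. Cells were grouped by label. Ratios are of mean CPM + 1 for genes with a mean of 5 CPM or more in either group. Clusters (12, Ward, 20 principal components, 2000 variable genes) left out guidance and signalling genes. Doublets were not called. Reads were not counted by molecular identifier and are not independent molecules, so intervals and floors cover counting error only. Unc50 and Unc5cl, which are not netrin receptors, were left out. Guidance genes were described in full when found in 20% or more of the cells of a group, or when past 2-fold with a mean of 20 CPM or more in the higher group (35 genes); signalling genes were named when past 2-fold with a mean of 50 CPM or more and found in 30% or more of cells in the higher group. Other genes were named to account for counts, after their values were seen. The members and lists were chosen with earlier results of these data known. Python 3.11.15, numpy 2.4.6, pandas 2.3.3, scipy 1.17.1 and matplotlib 3.10.9 were used, and the scripts were tested on simulated data.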

Additional observations from a re-analysis of the deposited data

Results flagged for a closer look

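Sema3d, a secreted semaphorin, moved in opposite directions over the 2 runs of the reference. In uninjured Neurog1 cells its mean was 31.9 CPM, all from 1 cell, against 1.97 CPM in reference run 1 and 123.02 CPM in run 2. The log2 ratio was 3.47 over run 1 and -1.91 over run 2. The difference was not tested.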

How the results depend on the processing

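No paired analysis was possible because the replicate numbers only name cells and each group is 1 sample with no test. The cause of each change below was not tested. Without the highest cell of each gene and group, the number of guidance genes at least 2-fold higher was 1 at 14 days over uninjured, 2 at 14 over 5 days, 3 at 5 days over uninjured, 7 for Neurog1 over reference and 1 for engrafted over 14 days; the number lower was 6 at 5 days over uninjured, 5 for OMP over reference neuron-like and 3 for OMP over Neurog1. Log2 ratios that turned were Ephb2 (0.83 at 14 days and 0.39 at 5 days over uninjured, 0.10 for OMP over reference neuron-like), Sema7a (0.15 for OMP over reference neuron-like) and Sema4d (-0.21 for engrafted over 14 days). With 2000 or more genes per library, they were Efnb2 (-0.43) and Ephb2 (0.72) at 5 days, Ephb2 at 14 days (1.96), Ephb2 (2.07), Sema4d (-1.19) and Sema7a (2.52) for OMP over reference neuron-like, Sema4d (-1.11) for engrafted and Sema7a (0.18) for Neurog1 over reference, with 4 higher at 14 days and 12 lower in engrafted cells. With 8 clusters Ephb2 was 1.90 and Sema7a 3.18, with 6 lower. Efna3 for Neurog1 over reference was 0.10 over run 2 alone and 0.60 without the libraries over 10000 genes.

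In the FPKM table the numbers higher were 0 (14 days over uninjured), 1 (14 over 5 days), 1 (5 days over uninjured) and 6 (OMP over Neurog1), and lower 4, 0, 6 and 3, with 3 for engrafted cells. At a mean of 20 CPM or more they were 0, 3, 1 and 7 higher, and lower 5 (14 days over uninjured), 1 (14 over 5 days), 5 (OMP over Neurog1) and 4 (engrafted). With no filter they were 9 (14 over 5 days), 10 (5 days) and 10 (engrafted) higher, and 14 (14 over 5 days) and 32 (Neurog1 over reference) lower. With a pseudocount of 10 CPM they were 0, 2 and 3 higher in the 3 Neurog1 time comparisons, and lower 5, 2 and 6, with 7 for OMP over reference neuron-like and 4 for engrafted. With every library 13 were lower in engrafted cells. Among all single-gene log2 ratios recomputed 1549 stayed and 17 turned sign. Depth limits genes under about 10 CPM, which stood for 5.02 fragments in the engrafted group.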
